A study of Rattus norvegicus with 24 samples.

Results

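Lungs of rats exposed to 5 mg/mL of WCSC, a whole-cigarette smoke condensate, were compared between 12 days (3 libraries) and 6 days (3 libraries). These are 6 of the 24 libraries of a series that also holds 10 mg/mL, 20 mg/mL and control lungs at both times, with 3 libraries in each of the 8 groups. The 6 libraries were chosen by dose and time as labelled, and all 11421 genes with enough reads in the series were tested. The labels give the tissue as lung and the genotype of every group, controls included, as WT. The strain, sex and age of the rats, the route and schedule of dosing, the content of the control treatment and whether a library is 1 animal are not given in the labels used here. Control lungs at 12 and 6 days give the same contrast of time without the condensate.

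Smoke condensate is matter of cigarette smoke, collected and redissolved. Its aromatic hydrocarbons are ligands of the aryl hydrocarbon receptor, which switches on Cyp1a1, and its oxidants act on the NRF2 system of antioxidant genes. In rodent lung, smoke is best known for drawing in neutrophils and loading alveolar macrophages with lipid. A whole piece of lung also holds blood, and its globin transcripts come from red cell precursors and reticulocytes, the young red cells that still carry RNA.

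Total counts were 7820928, 6772757 and 6440707 in replicates 1, 2 and 3 at 12 days, and 11109713, 9630339 and 5203358 at 6 days. After thinning every library to 4758014 reads, 12160, 11938 and 12225 genes were detected at 12 days, against 11584, 11465 and 12422 genes at 6 days. Replicates 1 and 2 at 6 days were thus among the 8 libraries of the series with the fewest detected genes (11465 to 11751, against 11938 to 12473 in the other 16). Of those 8 libraries 6 came from 6 days, and none was a 5 mg/mL library of 12 days. Correlations of log2 values were 0.942 to 0.955 between the 12-day libraries and 0.906 to 0.926 between the 6-day libraries. Replicate 3 at 6 days correlated at 0.934 to 0.956 with the 12-day libraries, above its values with the other 6-day libraries (0.906 and 0.914). Replicates 1 and 2 at 6 days correlated at 0.926 with each other and at 0.908 to 0.933 with the 12-day libraries. They were set apart by their few detected genes. Leaving out these 2 libraries compares 12 days with replicate 3 alone, the smallest of the 6 libraries (5203358 counts). Values without them stand beside the results below where the log2 fold change moved by over 1.5 times. Of 109 genes followed in this way, 13 had the other sign without them, 44 the same sign and a value more than 1.5 times smaller, 8 one more than 1.5 times larger, and 44 stayed within 1.5 times. Lung markers were abundant in all 6 libraries: Sftpc, a surfactant gene of alveolar type II cells, had 9636, 9984 and 10702 CPM (counts per 1000000 counts of the library, after scaling) at 12 days and 12488, 10978 and 8546 CPM at 6 days. Heart muscle genes, which mark cardiac tissue cut out with a lung, were near 0 (list means of -0.96 to -0.34 log2 CPM at 12 days and -1.26 to -0.62 at 6 days).

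No gene passed the threshold between 12 and 6 days at 5 mg/mL. In edgeR's quasi-likelihood test with Benjamini-Hochberg adjustment over the 11421 genes the smallest adjusted p was 0.665, and percent called was 0. At an unadjusted p under 0.05 there were 790 genes (6.92%), 436 with higher (3.82%) and 354 with lower (3.10%) values at 12 days, where 571 would be the number if nothing differed. The 3 libraries of each time did not overlap for 694 genes with higher values (6.08%) and 589 with lower values (5.16%), together 11.2%. The exact two-sided permutation test of globin shares below gives p = 0.1 to such a separation of 3 against 3 libraries. A lack of overlap is therefore weak evidence for a single gene. The quasi-likelihood test called 0 genes in control lungs over the same interval. There 281 genes had an unadjusted p under 0.05 (2.46%) and 1018 were without overlap (8.91%). The order of the 2 intervals in genes under that unadjusted limit depends on the tool, since limma voom with sample quality weights gave 1433 at 5 mg/mL and 1573 in control lungs. Called genes were also 0 at 10 mg/mL and at 20 mg/mL, with 510 and 711 genes under that unadjusted limit. The values below therefore describe these libraries, and none of the single genes named had an adjusted p under 0.665.

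Red cell transcripts had the lowest median of the 38 gene lists examined. All 11 red cell genes tested had lower values at 12 days, as had 52.2% of all genes (47.7% were higher), with a median log2 fold change of -1.60, beside -0.02 over all genes tested. In 9 of the 11 the 3 libraries at 12 days lay below all 3 at 6 days, which was so for 5.16% of all genes. None of the 11 passed the adjusted threshold.

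The beta-globin genes had the lowest fitted values of that list, and the 250 bases before their starts are shown because these linked genes had lower values together. The sequences are those of RefSeq on GRCr8, while the counts were made on rn6. They were read 5′ to 3′ on the minus strand, the first from chr1:167663722-167663971 and the second from chr1:167643521-167643770. Capitals mark 3 short motifs of globin promoters, searched on both strands. The first is CACCC (its other strand reads GGGTG), the second is CCAAT (other strand ATTGG), which can lie next to its own reverse, and the third is ATAAA (other strand TTTAT), the end of a TATA-like element.
Hbb: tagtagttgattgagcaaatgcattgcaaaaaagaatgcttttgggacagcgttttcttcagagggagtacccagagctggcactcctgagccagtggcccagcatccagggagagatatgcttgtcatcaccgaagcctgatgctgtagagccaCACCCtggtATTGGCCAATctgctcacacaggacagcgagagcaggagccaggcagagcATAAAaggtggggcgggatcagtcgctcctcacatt
Hbb-b1: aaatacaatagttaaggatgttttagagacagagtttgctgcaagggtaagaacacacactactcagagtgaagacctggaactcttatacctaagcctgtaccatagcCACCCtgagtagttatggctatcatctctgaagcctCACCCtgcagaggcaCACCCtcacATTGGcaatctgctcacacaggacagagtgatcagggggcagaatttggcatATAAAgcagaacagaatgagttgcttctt
The Hbb window held 1 match of the first motif, 2 of the second and 1 of the third, and the Hbb-b1 window held 3, 1 and 1. Of 33360 distinct windows of that length in the table, 49.2% held the first, 34.0% the second, 39.3% the third and 5.50% all 3. These matches are a description of the windows and show no binding.

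From here on, values in parentheses or without a unit are log2 fold changes of 12 over 6 days at 5 mg/mL, unless named otherwise. Hbb, an adult beta-globin gene, had 1887, 2013 and 888 CPM at 12 days and 6145, 12391 and 3142 CPM at 6 days. Every 12-day library was lower than every 6-day library, with a log2 fold change of -2.18 (SE 0.65, 95% interval -3.52 to -0.84). Hbb-b1, its neighbour in the cluster, had 1111, 1309 and 612 CPM at 12 days and 4379, 7635 and 1900 CPM at 6 days, again without overlap (-2.20, SE 0.66). The alpha-globin symbol Hba1 had 7650, 8193 and 4566 CPM at 12 days and 16053, 27698 and 18402 CPM at 6 days. The 2 sets did not overlap (-1.61, SE 0.48), and Hba2 had nearly the same values (-1.60). The globin genes are near-identical copies whose reads the counting could split, so the members of a pair are uncertain one by one. Alas2, the red cell enzyme that starts haem synthesis, had 89.4, 127 and 52.1 CPM at 12 days and 204, 357 and 198 CPM at 6 days, without overlap (-1.50, SE 0.45). Bpgm, whose enzyme makes the bisphosphoglycerate that tunes oxygen release by haemoglobin, had 66.8, 69.6 and 40.2 CPM at 12 days and 109, 197 and 113 CPM at 6 days. It too was lower in every 12-day library (-1.25, SE 0.35). Hbb was at -0.96 and Hbb-b1 at -0.89 when replicates 1 and 2 at 6 days were left out.

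Other members of the red cell list had values in the same direction at much lower levels. Slc4a1, the band 3 anion exchanger of the red cell membrane, had a log2 fold change of -1.71, and Ahsp, the chaperone of alpha-globin, of -1.47. Hemgn, a nuclear protein of erythroid cells, had -1.37, and the libraries of all 3 genes did not overlap. Epb42, a protein of the red cell membrane skeleton, had 0.765, 1.21 and 1.34 CPM at 12 days and 3.44, 0.783 and 2.14 CPM at 6 days, and the times overlapped (-0.95).

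Summed over 10 globin symbols, globin took 2.29%, 2.39% and 1.33% of the counts at 12 days, against 5.29%, 8.23% and 5.32% at 6 days. The mean was 2.00% ± 0.582 at 12 days and 6.28% ± 1.69 at 6 days (SD, n = 3 each), a ratio of 0.319. An exact two-sided permutation test gave p = 0.1, the smallest that 3 against 3 libraries allow. In control lungs globin took 3.38%, 2.99% and 2.44% at 12 days and 7.34%, 5.44% and 3.50% at 6 days. These also did not overlap, and the ratio of the means was 0.541. At 10 mg/mL the shares were 2.28% ± 0.243 at 12 days and 5.24% ± 1.15 at 6 days, and at 20 mg/mL 2.76% ± 1.21 at 12 days and 5.02% ± 3.47 at 6 days, where the libraries overlapped. Of the 11 red cell genes 8 had lower values at 12 days in control lungs (median -0.75, with 3 not overlapping, beside 4.19% of all genes). The median of the difference from control was -1.01. For that difference 0 of the 11 genes had an unadjusted p under 0.05, beside 2.05% of all genes, a share too small for 11 genes to depart from downwards. In a piece of tissue, fewer cells of a type and less RNA per cell cannot be told apart. The amount of blood left in each piece of lung was not recorded in the labels, and its part in the result was not tested. Without replicates 1 and 2 at 6 days the median of the list was -1.13.

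**Figure D1:**
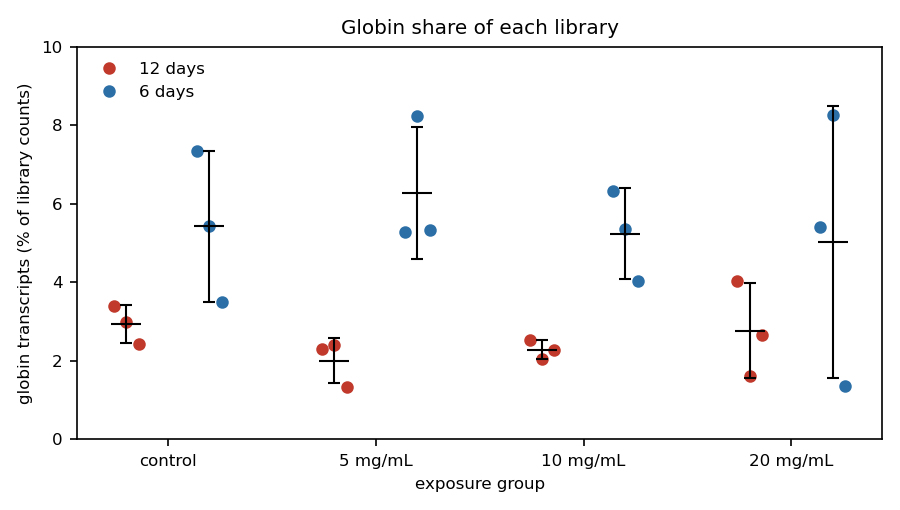
Share of library counts in 10 globin symbols (vertical axis, percent), with 12 days left of 6 days in each of the 4 exposure groups; points are libraries, black bars the mean and SD of 3. At 5 mg/mL the 12-day libraries span 1.33% to 2.39% and the 6-day libraries 5.29% to 8.23%, and control lungs show the same order.

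Of the genes with the smallest p-values, 14 with higher values at 12 days met the rule for naming. Ephx2, the soluble epoxide hydrolase that breaks down epoxides of fatty acids, had 14.9, 9.34 and 10.1 CPM at 12 days and 0.981, 0.131 and 2.85 CPM at 6 days. The groups lay far apart, with a log2 fold change of 3.18 (SE 0.69, 95% interval 1.74 to 4.62), and rested on 247 reads at 12 days and 27 at 6 days. Control lungs had 8.49, 7.22 and 5.55 CPM at 12 days and 4.72, 6.23 and 8.30 CPM at 6 days, so the low values were those of the 6-day exposed lungs. The value of Ephx2 was 2.02 without replicates 1 and 2 at 6 days. Elavl2, an RNA-binding protein best known from neurons, had 6.25, 14.8 and 8.75 CPM at 12 days and 0, 1.96 and 2.85 CPM at 6 days (2.68, SE 0.75). In control lungs the order was the other way round, with 2.43, 2.89 and 3.05 CPM at 12 days and 10.7, 9.49 and 5.07 CPM at 6 days.

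Actb, the cytoplasmic beta-actin often used as a reference transcript, had 2165, 3388 and 3304 CPM at 12 days and 892, 1359 and 1939 CPM at 6 days. Its libraries did not overlap (1.08, SE 0.30), while control lungs overlapped, with 3648, 1706 and 2143 CPM at 12 days and 1854, 2129 and 2453 CPM at 6 days. Met, the receptor of hepatocyte growth factor that takes part in alveolar repair, had 52.4, 80.6 and 54.0 CPM at 12 days and 26.3, 30.4 and 34.9 CPM at 6 days, again without overlap (1.03, SE 0.28). Nfib, a transcription factor required for lung maturation in mice, had 176, 199.7 and 161 CPM at 12 days and 77.4, 103 and 132 CPM at 6 days (0.78, SE 0.21). Every 12-day library of Nfib was above every 6-day library, as for Slc4a4, a sodium bicarbonate cotransporter (1.10), and Trps1, a GATA-type repressor (1.00). Leaving out replicates 1 and 2 at 6 days gave 0.62 for Actb, 0.46 for Nfib, 0.66 for Slc4a4 and 0.65 for Trps1.

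Prpf4b, a kinase of the spliceosome, had 925, 947 and 945 CPM at 12 days and 354, 558 and 548 CPM at 6 days, and Srek1, a splicing regulator, 232, 245 and 227 CPM at 12 days and 72.6, 129 and 143 CPM at 6 days. Both were without overlap (0.95 and 1.03 on the log2 scale). Prpf4b also had higher values at 12 days in control lungs (0.70, SE 0.23), without overlap between 957, 847 and 979.9 CPM at 12 days and 485, 584 and 639.9 CPM at 6 days. The chromatin reader Baz2b (0.78), the stress-granule protein Prrc2c (0.95) and the poly(A) polymerase homologue Fam46a (0.87) were higher in all 3 libraries at 12 days than in any at 6 days. The same held for Fndc3a, a fibronectin type III domain protein (0.71), and Amer1, a regulator of Wnt signalling (1.57). Leaving out replicates 1 and 2 at 6 days gave 0.47 for Baz2b, 0.47 for Fam46a and 0.38 for Fndc3a. Apart from Ephx2 and Elavl2 their log2 fold changes lay between 0.71 and 1.57.

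Of the 14 genes with lower values at 12 days, 3 are the red cell genes Hbb, Hba1 and Bpgm described above. Alox15, the lipoxygenase that oxygenates fatty acids in macrophages and eosinophils, had 12.8, 6.78 and 4.60 CPM at 12 days and 24.1, 40.9 and 35.2 CPM at 6 days. The libraries did not overlap (-2.04, SE 0.54, 95% interval -3.16 to -0.93). At 10 mg/mL its log2 fold change over the same interval was -1.90, at 20 mg/mL -0.89 and in control lungs -0.40, and those comparisons use other libraries. Rbm38, an RNA-binding protein and p53 target that is also abundant in erythroid cells, had 13.5, 6.93 and 10.1 CPM at 12 days and 37.8, 42.6 and 29.9 CPM at 6 days (-1.85, SE 0.48). Control lungs gave 0.01 (SE 0.47) for Rbm38.

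Prkch, a protein kinase C of T cells and epithelium, had 54.7, 60.4 and 49.0 CPM at 12 days and 143, 107 and 73.3 CPM at 6 days, with no overlap (-0.98, SE 0.28). S1pr4, the sphingosine phosphate receptor of lymphoid and myeloid cells, had 12.4, 10.4 and 14.5 CPM at 12 days and 32.3, 22.3 and 20.8 CPM at 6 days. It was lower in each 12-day library (-1.02, SE 0.29), beside 0.21 in control lungs. Dph1, which starts the synthesis of diphthamide on elongation factor 2, and Ovca2, a serine hydrolase, had log2 fold changes of -0.77 and -0.74. These genes overlap in the RefSeq annotation, and without a stated strand setting their reads cannot be told apart. Alkbh7, a mitochondrial dioxygenase (-0.65), Arhgef28, an exchange factor of RhoA (-0.72), St3gal6, a sialyltransferase (-0.66), Tmem160, a mitochondrial membrane protein (-0.82), and the histone H4 gene Hist1h4b (-1.22) complete the set. With replicates 1 and 2 at 6 days left out, the values were -0.08 for St3gal6, -0.28 for Hist1h4b, -0.29 for Alkbh7, -0.38 for Tmem160 and -0.41 for Prkch. Hist1h4b belongs to a family of near-identical copies and its level is uncertain for that reason.

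**Figure D2:**
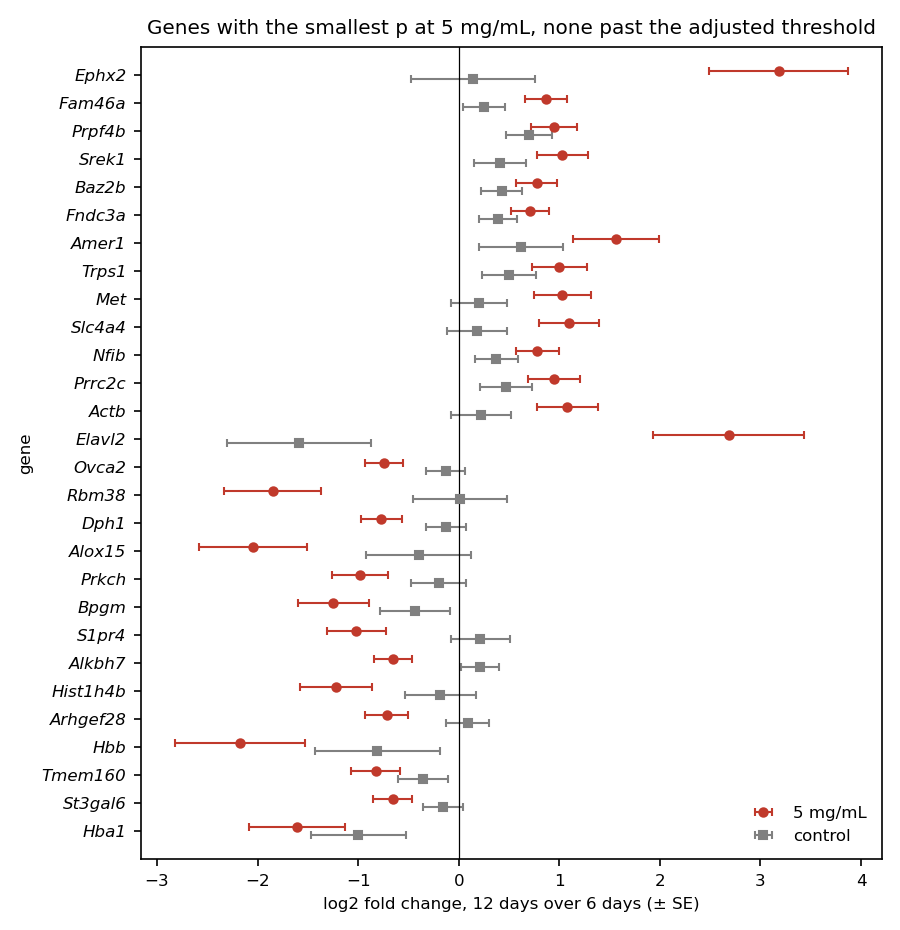
Log2 fold change of 12 over 6 days with its SE (horizontal axis) for the 28 named genes at 5 mg/mL (red circles) and in control lungs (grey squares), from 3 libraries a group. None passes the adjusted threshold, and Ephx2 (3.18) and Elavl2 (2.68) lie farthest to the right. The genes were picked by their 5 mg/mL values, and the control value is nearer 0 for each of them.

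Neutrophil genes had mostly lower values at 12 days: 11 of 14 were lower and 3 higher, with a median of -1.07, and 6 of the 14 had an unadjusted p under 0.05, all lower, beside 3.10% of all genes. S100a9, a calcium-binding alarmin of neutrophils, had 137, 243 and 122 CPM at 12 days and 472, 551 and 161 CPM at 6 days (-1.24, SE 0.54). Its partner S100a8 had 71.7, 154 and 62.3 CPM at 12 days and 250.5, 375 and 93.1 CPM at 6 days (-1.32). In both the high values were replicates 1 and 2 at 6 days, and replicate 3 lay within the 12-day range. Camp, the cathelicidin stored in neutrophil granules, had 2.30, 2.11 and 2.82 CPM at 12 days and 8.24, 18.3 and 1.96 CPM at 6 days (-1.98), and the chemokine Cxcl3 55.6, 62.1 and 63.4 CPM at 12 days and 341, 98.3 and 60.7 CPM at 6 days (-1.47). None of the 14 genes was free of overlap, beside 6.08% of all genes that were higher and 5.16% that were lower without overlap. Lcn2, an iron-binding protein made by neutrophils and by airway epithelium, had a higher fitted value (41.7, 151 and 2.52 CPM at 12 days and 23.0, 17.1 and 34.5 CPM at 6 days), with 1 very high library.

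In control lungs the neutrophil median was 0.49, with 10 of 14 genes higher at 12 days, and 5 of 14 had an unadjusted p under 0.05 in the difference between exposed and control lungs, beside 2.05% of all genes. Those 5 include S100a9, S100a8, Cxcl3 and Fcnb, the neutrophil ficolin (log2 difference -1.76, SE 0.64). In edgeR's quasi-likelihood test with Benjamini-Hochberg adjustment the smallest adjusted p of that difference was 1.00. Means over the list were 3.12, 3.11 and 2.71 log2 CPM at 12 days and 4.15, 4.50 and 2.98 at 6 days. The high means were those of the 2 libraries with few detected genes. The number of detected genes entered 1 of the alternatives as a covariate, and its part in the result was not tested beyond that fit. Over the alternatives with all libraries the median at 5 mg/mL ran from -1.17 to -0.32. Without replicates 1 and 2 at 6 days the median was 0.27, with 0.07 for S100a9, 0.06 for S100a8, 0.31 for Camp, 0.01 for Cxcl3 and 0.96 for Fcnb. With 2 surrogate variables (covariates estimated from the counts) the median was -0.32.

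Lymphocyte genes were counted in 2 lists. Of 29 T and NK cell genes 23 had lower values at 12 days (median -0.29), 4 of them with an unadjusted p under 0.05, beside 3.10% of all genes, and 3 without overlap, beside 5.16%. Cd3g, a chain of the T cell receptor complex, had 1.79, 3.01 and 1.34 CPM at 12 days and 7.36, 13.8 and 2.14 CPM at 6 days (-1.93, SE 0.69), with 1 6-day library inside the 12-day range. Il2rb, the shared beta chain of the receptors for interleukins 2 and 15, had -0.74, and Zap70, the kinase next to the T cell receptor, -0.91 on that scale. Of 17 B and plasma cell genes 10 were lower and 7 higher (median -0.16). Fcer2, the low-affinity IgE receptor, had 4.98, 3.17 and 1.93 CPM at 12 days and 18.3, 16.7 and 3.74 CPM at 6 days (-1.94, SE 0.59), and Cd79b, the signalling chain of the B cell receptor, had -1.32 (SE 0.49). In control lungs 20 of 29 T and NK cell genes and 15 of 17 B and plasma cell genes were higher (medians 0.20 and 0.43). In the difference from control 3 of the 29 and 2 of the 17 had an unadjusted p under 0.05, beside 2.05% of all genes. Without replicates 1 and 2 at 6 days both list medians at 5 mg/mL were above 0 (0.10 for T and NK cells and 0.30 for B and plasma cells). The same fit gave -0.05 for Cd3g, -0.09 for Il2rb, -0.07 for Zap70, -0.13 for Fcer2 and 0.30 for Cd79b. Mast cell genes had a median of -0.84 (14 of 17 lower, 0 with an unadjusted p under 0.05, beside 6.92% of all genes), which became 1.26 without those 2 libraries.

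Antigen-presenting and macrophage genes had medians on either side of 0. Of 13 genes of MHC class II presentation and dendritic cells 10 had higher values at 12 days (median 0.20, and 0.44 in control lungs). Their mean was 5.51, 5.57 and 5.72 log2 CPM at 12 days and 5.22, 5.09 and 5.42 at 6 days, without overlap. Cd74, the invariant chain, had 1084, 1124 and 1179 CPM at 12 days and 1033, 636 and 987 CPM at 6 days (0.35), RT1-Db1, a class II beta chain, 0.41, and Clec9a, a receptor of cross-presenting dendritic cells, 0.73. Among 16 macrophage genes 11 were lower (median -0.25), among them the haemoglobin scavenger receptor Cd163 (3.83, 1.96 and 5.04 CPM at 12 days and 9.32, 5.35 and 5.34 CPM at 6 days) and the complement component C1qa (-0.42), and the median was 0.42 without replicates 1 and 2 at 6 days. Lipid-laden macrophage genes were divided, 10 higher and 12 lower (median -0.08). The cholesterol exporter Abca1 had 9.57, 7.84 and 14.2 CPM at 12 days and 2.06, 3.13 and 5.34 CPM at 6 days, without overlap (1.61, SE 0.46), while the lysosomal protease Ctsl had -0.65 and lipoprotein lipase, Lpl, 0.70. The macrophage elastase Mmp12, a mediator of smoke emphysema in mice, was low in all 6 libraries (2.04, 8.29 and 6.53 CPM at 12 days and 2.06, 5.35 and 0.356 CPM at 6 days, 1.09). Leaving out those 2 libraries gave 0.21 for Cd74, 0.13 for Clec9a, -0.55 for Cd163 (against -0.89 with all), -0.11 for C1qa, 0.99 for Abca1 and 3.92 for Mmp12, and a lipid-laden macrophage median of 0.31.

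Interferon-response genes were 23 higher and 17 lower (median 0.08), and 6 of 40 were higher without overlap, beside 6.08% of all genes. Ddx58, which encodes the RNA sensor RIG-I, had 76.3, 91.6 and 88.7 CPM at 12 days and 68.8, 56.1 and 58.4 CPM at 6 days (0.48, SE 0.21). Mx2 (0.64) and Oasl2 (1.11), both antiviral proteins, also did not overlap, and Rsad2, the antiviral enzyme viperin, was on the other side (-1.07). Cytokine and NF-kappaB genes had a median of 0.09. Il1b had 38.5, 45.7 and 38.4 CPM at 12 days and 69.3, 63.8 and 27.6 CPM at 6 days (-0.39, SE 0.34). The monocyte chemokine Ccl2 (13.3, 1.66 and 10.5 CPM at 12 days and 10.5, 7.31 and 7.30 CPM at 6 days) and the neutrophil chemokine Cxcl1 (27.4, 6.63 and 24.5 CPM at 12 days and 8.05, 12.7 and 22.6 CPM at 6 days) overlapped throughout. With replicates 1 and 2 at 6 days left out, the values were -0.34 for Rsad2, 0.47 for Oasl2, 0.58 for Il1b, -0.20 for Cxcl1 (against 0.45 with all) and 0.24 for Ccl2 (against 0.02), and the medians 0.44 for interferon-response genes and 0.24 for cytokine and NF-kappaB genes.

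Genes of the translation and respiration machinery split the 6-day libraries. Of 82 cytosolic ribosomal protein genes 81 had lower fitted values at 12 days (median -0.63). With an unadjusted p under 0.05 there were 19, all lower, beside 3.10% of all genes, and 0 were free of overlap, beside 5.16% that were lower without overlap. Their mean was 8.48, 8.65 and 8.37 log2 CPM at 12 days and 9.42, 9.50 and 7.98 at 6 days. Replicates 1 and 2 at 6 days were above and replicate 3 below all 12-day libraries. Rpl37 had 477, 548 and 430.4 CPM at 12 days and 1227, 1501 and 352 CPM at 6 days (-1.08), and Rps15 (-0.83) and Rpl22l1 (-0.99), all ribosomal proteins of the cytosol or their paralogues, had the same order. Of 78 oxidative phosphorylation genes 72 were lower (median -0.39), 8 of them with an unadjusted p under 0.05 and 1 without overlap, to be read against the same shares. Cox8b, a cytochrome oxidase subunit, had 14.0, 12.5 and 5.79 CPM at 12 days and 31.7, 29.2 and 17.6 CPM at 6 days and did not overlap (-1.28), whereas Atp5g3, a subunit of the ATP synthase (-0.64), and Cyc1, cytochrome c1 (-0.78), overlapped. Without replicates 1 and 2 at 6 days the median was 0.59 for ribosomal protein genes and 0.20 for oxidative phosphorylation genes, with 0.48 for Rpl37, 0.30 for Rps15, 0.49 for Rpl22l1, -0.69 for Cox8b, -0.08 for Atp5g3 and 0.02 for Cyc1. With 2 surrogate variables the median at 5 mg/mL was 0.06 for ribosomal protein genes and 0.01 for oxidative phosphorylation genes. In control lungs, without surrogate variables, the medians were -0.07 for ribosomal protein genes and -0.09 for oxidative phosphorylation genes. In the same order of lists they were -0.59 and -0.40 at 10 mg/mL, and -0.02 and 0.01 at 20 mg/mL. The number of detected genes entered 1 of the alternatives as a covariate. Over the alternatives with all libraries the medians at 5 mg/mL ran from -0.65 to 0.06 for ribosomal protein genes. They ran from -0.40 to 0.01 for oxidative phosphorylation genes. Beyond that fit, the part of the lower number of detected genes in replicates 1 and 2 at 6 days was not tested.

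**Figure D3:**
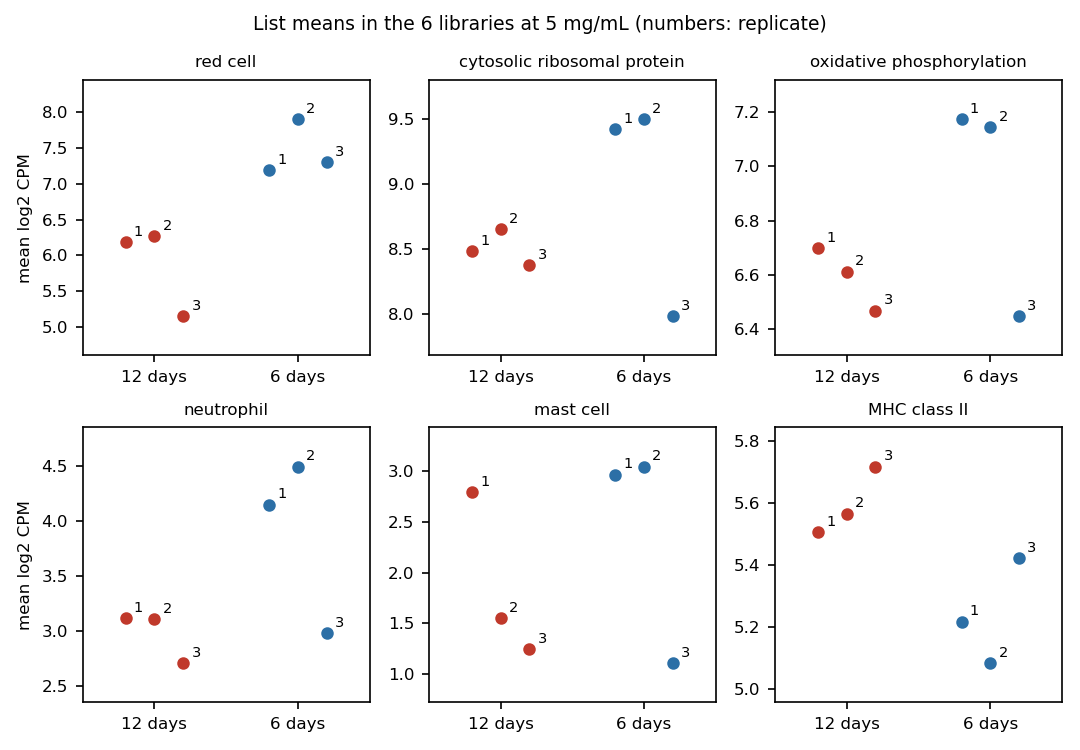
Mean log2 CPM of 6 gene lists in each 5 mg/mL library (vertical axis), 12 days left and 6 days right, numbers giving the replicate. Red cell and MHC class II means do not overlap between times, while ribosomal protein, oxidative phosphorylation, neutrophil and mast cell means are high in replicates 1 and 2 at 6 days (and, for mast cells, in replicate 1 at 12 days) and lower in replicate 3 at 6 days.

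The genes that smoke condensate is best known to act on had no common direction between times. Of 8 genes of the aryl hydrocarbon receptor list 4 were higher and 4 lower (median -0.01). Cyp1a1, its classic target, had 3.83, 10.1 and 5.79 CPM at 12 days and 19.9, 5.87 and 21.2 CPM at 6 days, with overlap (-1.25, SE 0.75, 95% interval -2.80 to 0.29). Among 35 NRF2 antioxidant genes 13 were higher and 22 lower (median -0.16, and -0.10 in control lungs). Nqo1, the quinone reductase, had 45.4, 39.2 and 33.1 CPM at 12 days and 45.0, 31.5 and 35.9 CPM at 6 days (0.06, 95% interval -0.38 to 0.51), and Hmox1, haem oxygenase, 33.3, 63.9 and 70.8 CPM at 12 days and 46.7, 46.5 and 40.6 CPM at 6 days (0.33). Gclm, the modifier subunit of the enzyme that makes glutathione's precursor, had 17.6, 23.5 and 17.1 CPM at 12 days and 35.4, 57.3 and 33.3 CPM at 6 days. It was lower in every 12-day library (-1.12, SE 0.40), while Abcc1, an exporter of glutathione conjugates, had 1.03 with overlap. In the fit without replicates 1 and 2 at 6 days Abcc1 was at 0.10 and Nqo1 at 0.14, and the medians of the aryl hydrocarbon receptor and NRF2 lists were both 0.14.

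Hormone and stress lists had medians between -0.21 and -0.04. The glucocorticoid-induced list was at -0.21 (14 of 20 lower), with Fkbp5, a chaperone of the glucocorticoid receptor, at 24.7, 38.3 and 52.8 CPM at 12 days and 34.1, 47.0 and 97.9 CPM at 6 days (-0.62). Zbtb16, a zinc finger factor that glucocorticoids induce strongly, had 1.91, 2.56 and 8.16 CPM at 12 days and 0.491, 3.00 and 49.3 CPM at 6 days. Its fitted value of -2.03 came from 1 6-day library, and without that library it was 1.32. Glul, glutamine synthetase, had -0.36 without overlap, and Cebpd, a C/EBP factor of the acute phase, -0.18 with overlap. In the heat shock list (median -0.14) Hspa1b, a copy of inducible HSP70 with a near-identical partner, had 43.9, 199.7 and 58.0 CPM at 12 days and 28.3, 13.2 and 56.0 CPM at 6 days, where 1 12-day library was far above the rest. The endoplasmic reticulum chaperone Hyou1 (-0.46) and Herpud1, of the degradation machinery there (-0.48), were lower without overlap, though the ER stress list had a median of -0.04 and a mean that was higher at 12 days without overlap (6.22, 6.21 and 6.14 log2 CPM at 12 days and 6.02, 5.89 and 6.12 at 6 days). The death receptor Fas of the p53 list had 13.3, 17.2 and 16.2 CPM at 12 days and 5.69, 8.36 and 12.5 CPM at 6 days (0.82, SE 0.31). Of the hypoxia and glycolysis list (median -0.08) Ndrg1, a stress-response gene, had -0.61 and Bnip3, a mitophagy receptor, -0.57. With replicates 1 and 2 at 6 days left out, the values were -1.33 for Fkbp5, -3.54 for Zbtb16, 0.86 for Hspa1b (against 1.64 with all), -0.13 for Herpud1, 0.33 for Fas, -0.05 for Ndrg1 and -0.23 for Bnip3. The medians were then -0.36 for the glucocorticoid-induced list, 0.09 for heat shock, 0.08 for ER stress and 0.05 for hypoxia and glycolysis.

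Cell division genes had mostly higher values at 12 days. Of 38 genes 25 were higher (median 0.15), 6 of them with an unadjusted p under 0.05, all higher, beside 3.82% of all genes. Without overlap 5 were higher, beside 6.08% of all genes, and 2 lower, beside 5.16%. Top2a, the topoisomerase of dividing cells, had 30.4, 35.3 and 28.9 CPM at 12 days and 8.15, 17.5 and 18.0 CPM at 6 days. The libraries did not overlap (1.12, SE 0.44), with 0.44 in control lungs. Of the replication helicase subunits, Mcm3 (17.0, 24.1 and 13.8 CPM at 12 days and 11.7, 10.8 and 9.79 CPM at 6 days) and Mcm5 (2.04) were higher without overlap. The other subunits had no common direction, with Mcm2 at 0.12, Mcm4 at -0.18, Mcm6 at -0.33 and Mcm7 at -0.24. The mitotic checkpoint kinase Bub1 had 1.22 with overlap. Leaving out replicates 1 and 2 at 6 days gave a list median of 0.14, with 1.04 for Mcm5 and 0.26 for Bub1.

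Lists of alveolar, endothelial, smooth muscle and matrix genes had medians between -0.06 and 0.12. Type II cell genes had a median of 0.12, with the phosphate transporter Slc34a2 at 0.33, the surfactant protein gene Sftpb at 0.25 and Sftpc at -0.08 (95% interval -0.75 to 0.59). Type I cell genes had a median of 0.05, with 7 of 12 higher and 5 lower. The chloride channel gene Clic5 had 2584, 2916 and 2800 CPM at 12 days and 2294, 2362 and 2381 CPM at 6 days. Rtkn2, a marker of type I cells, was at 0.93, beside 0.055 for Ager, -0.04 for Aqp5, -0.44 for Hopx and -0.58 for Cav2. Of the airway genes, the club cell secretoglobin Scgb1a1 had 15736, 17844 and 7141 CPM at 12 days and 16580, 11230 and 10850 CPM at 6 days (0.07). Cyp2b1, a cytochrome P450 of club cells, had 593, 509.7 and 404 CPM at 12 days and 337, 362 and 312 CPM at 6 days, without overlap here (0.58) and with 576, 502 and 408 CPM at 12 days against 378, 377 and 367 CPM at 6 days in control lungs, also without overlap. Endothelial genes had a median of -0.06, with 8 higher and 12 lower, and the clotting factor carrier Vwf was at 0.64. Smooth muscle genes had a median of 0.09, with 8 higher and 4 lower, and Lmod1, an actin nucleator, was at 0.66. In the matrix list (median 0.12) type III collagen, Col3a1, had 2460, 2475 and 1873 CPM at 12 days and 3574, 4033 and 3240 CPM at 6 days. Col3a1 (-0.67) and fibronectin, Fn1 (-0.39), were lower without overlap, and fibrillin, Fbn1, had 0.64 with overlap. Of the lipid synthesis list (median 0.09) the desaturase Scd1 had 0.76 at 5 mg/mL and 0.86 in control lungs. Leaving out replicates 1 and 2 at 6 days gave 0.26 for Sftpc, 0.49 for Rtkn2, 0.34 for Scgb1a1, 0.10 for Vwf, -0.15 for Fn1 and 0.14 for Fbn1. The medians were then 0.37 for type II cell genes, 0.18 for type I cell genes, -0.19 for endothelial genes, 0.32 for smooth muscle genes and -0.11 for matrix genes. For the lipid synthesis list the median was then 0.15.

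**Figure D4:**
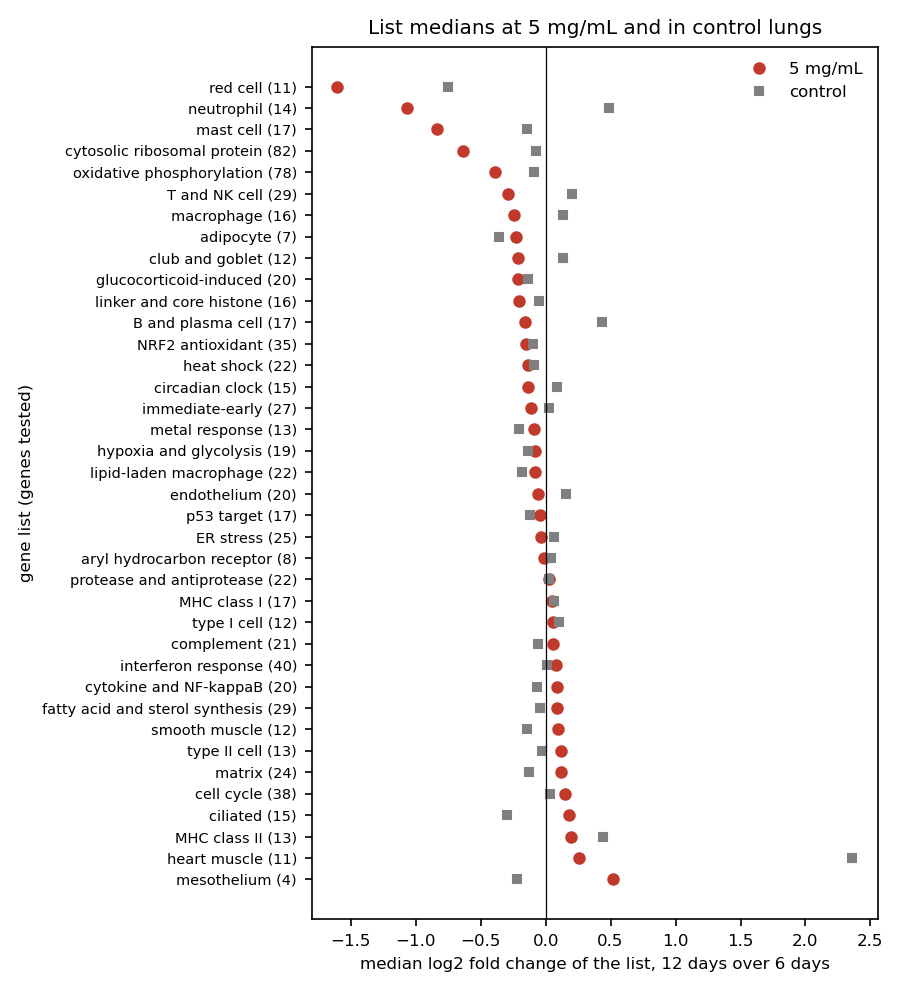
Median log2 fold change of 12 over 6 days (horizontal axis) for each of the 38 gene lists at 5 mg/mL (red circles) and in control lungs (grey squares), with the number of genes tested in parentheses. At 5 mg/mL red cell genes (-1.60) are lowest, and the heart muscle value of control lungs (2.36) comes with 1 control library of 12 days whose list mean is 3.20 log2 CPM.

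Whether the time difference at 5 mg/mL departs from that of control lungs was tested as a difference of the 2 contrasts. Again 0 genes passed, with 234 genes (2.05%) at an unadjusted p under 0.05, 117 in each direction, and 1602 in limma voom with sample quality weights. Of the 10 genes named by their p in this test, Elavl2 had the smallest (log2 difference 4.27, SE 1.04), from 2.68 at 5 mg/mL and -1.59 in control lungs. Ptgds, which makes prostaglandin D2, had 9.31, 8.44 and 5.93 CPM at 12 days and 5.40, 3.26 and 1.96 CPM at 6 days at 5 mg/mL, and 1.41, 2.17 and 1.80 CPM at 12 days and 8.42, 5.96 and 3.38 CPM at 6 days in control lungs. The orders were opposite and neither pair overlapped (log2 difference 2.85, SE 0.86). Areg, the growth factor amphiregulin that is a marker of epithelial repair, had 15.3, 17.8 and 9.05 CPM at 12 days and 3.14, 1.83 and 9.96 CPM at 6 days at 5 mg/mL, and 6.27, 4.15 and 7.63 CPM at 12 days and 11.1, 7.45 and 14.6 CPM at 6 days in control lungs (log2 difference 2.40, SE 0.75). Ephx2 (3.04, SE 0.92) and Slc26a4, the anion exchanger pendrin of airway epithelium (4.45, SE 1.42), were the other 2 with a positive log2 difference.

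On the other side, Serpina1, the elastase inhibitor alpha-1-antitrypsin, had 19.3, 13.6 and 5.64 CPM at 12 days and 31.5, 18.5 and 25.4 CPM at 6 days at 5 mg/mL, and 28.7, 19.9 and 31.2 CPM at 12 days and 9.57, 4.34 and 21.8 CPM at 6 days in control lungs (log2 difference -2.13, SE 0.67). Its order was opposite in exposed and control lungs, with overlap in both. Cdkn2c, an inhibitor of the G1 cyclin-dependent kinases, had 22.2, 11.9 and 12.3 CPM at 12 days and 26.2, 31.2 and 23.1 CPM at 6 days at 5 mg/mL, and 21.6, 19.3 and 19.3 CPM at 12 days and 17.9, 12.5 and 13.5 CPM at 6 days in control lungs (log2 difference -1.25). Cmc1, an assembly factor of cytochrome oxidase (-1.61), Alkbh7 (-0.86) and Akr1c19, an aldo-keto reductase (-2.15), also had negative differences, which for Akr1c19 came mostly from control lungs (1.81, against -0.35 at 5 mg/mL). The log2 fold change at 5 mg/mL without replicates 1 and 2 at 6 days was 2.02 for Ptgds (against 1.14 with all), 0.51 for Areg (against 1.53), -0.51 for Cmc1 (against -0.83) and -0.67 for Akr1c19. All 10 had an adjusted p of 1.00 in edgeR's quasi-likelihood test with Benjamini-Hochberg adjustment.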

How the data were processed

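RNA of 24 rat lung samples was extracted with Trizol and made into libraries with a Lexogen QuantSeq kit, which reads the ends of polyadenylated transcripts, per the labels' protocols. The authors deposited raw read counts per gene symbol, 1 table per sample. Bowtie2, bedtools and the build rn6 are named in the submitters' processing notes, and their versions, the annotation and the strand setting were not stated in the sources read. Whole-number counts were read as deposited. For symbols on repeated lines the line with the highest total was kept, which left out 167 of 17048 lines and 0.772% of the counts.

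The filterByExpr function of edgeR 4.0.16 (R 4.3.3) chose the genes, which were scaled by TMM, and fitted with the quasi-likelihood test in 1 model of 8 group means over 24 libraries (16 residual degrees of freedom, common biological coefficient of variation 0.335). Contrasts were 12 minus 6 days at 5 mg/mL, the same in control lungs, and their difference. Tests were two-sided, with Benjamini-Hochberg adjustment over 11421 genes and a threshold of 0.05. CPM are counts per 1000000 after TMM scaling, and list means use log2 CPM with a prior count of 0.5. The number of libraries, their depth and the spread between them limit the precision. The labels do not say that replicates are separate animals, so p-values measure the spread between samples, which may be technical. In none of the 8 groups did 2 libraries agree within sampling noise.

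Named were the 14 genes each way with the smallest p among symbol-named genes whose higher group averaged 5 CPM or more and whose libraries did not overlap, up to 4 genes per list, 5 each way in the difference from control, and 12 genes always, such as Cyp1a1. Members of the red cell and neutrophil lists beyond 4 were added after their values were seen. So were Mcm2, Mcm4, Mcm6, Mcm7, Ager, Aqp5, Hopx and Cav2, which were not followed through the alternatives. The libraries, lists and named genes were chosen with earlier results of these data known. Alternatives were other scalings, filters, DESeq2 1.42.0, limma 3.58.1 voom with sample quality weights, a replicate block, the number of detected genes or 2 surrogate variables of sva 3.50.0 as covariates, and leaving out each library. Leaving out both 6-day libraries with few detected genes was added after seeing the data. The edgeR fit was also run on simulated data, and its outcome there is not used to judge the count of called genes. Promoter windows come from a RefSeq table of GRCr8 and were matched by symbol, 2 of 2. 1 gene of the lists is not reported here by name, and the list counts include it.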

Additional observations from a re-analysis of the deposited data

How the results depend on the processing

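The count of called genes at 5 mg/mL between 12 and 6 days was 0 under every alternative except one. Leaving out each library in turn gave 0 to 1, the 1 being Tcf20 (log2 fold change 6.62, adjusted p = 0.0092 in edgeR's quasi-likelihood test) without replicate 3 at 6 days, where genes at an unadjusted p under 0.05 numbered 2094. Without single libraries that number ranged from 341 to 2094, against 790 with all. It was 905 in DESeq2 (smallest adjusted p 0.0944), 1433 in limma voom with sample quality weights (0.234), 162 against a 1.5-fold change, 576 with only the 2 groups in the fit and 248 without replicates 1 and 2 at 6 days. With the replicate number as a block, 0 genes were called and 903 had an unadjusted p under 0.05. Same-numbered libraries of the 2 times correlated in their deviations at 0.103, 0.055 and 0.169. These values are low, though each library correlated best with its own number. The labels do not say whether the numbers pair the samples, and these values cannot decide it. Called genes in control lungs and in the difference between exposed and control lungs were 0 under all alternatives, with 178 to 972 genes at an unadjusted p under 0.05 for that difference when single libraries were left out. Against 234 with all libraries, that number for the difference was 1602 in limma voom, 284 in DESeq2, 420 with 2 surrogate variables, 109 against a 1.5-fold change and 131 without replicates 1 and 2 at 6 days. In control lungs it was 1573 in limma voom, 333 in DESeq2, 672 with 2 surrogate variables, 59 against a 1.5-fold change and 481 once the number of detected genes entered the fit, compared with 281.

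Of the 109 genes followed through the alternatives, 102 kept their sign under every alternative with all libraries, 102 without each library in turn, and 0 passed the adjusted threshold under any. Without replicates 1 and 2 at 6 days the log2 fold change turned to 0.31 for Camp, 0.064 for S100a8, 0.069 for S100a9, 0.0078 for Cxcl3, 0.96 for Fcnb, 0.30 for Cd79b, 0.48 for Rpl37, 0.30 for Rps15, 0.49 for Rpl22l1, 0.019 for Cyc1, 0.26 for Sftpc, 0.58 for Il1b and -0.20 for Cxcl1. With 2 surrogate variables it was 0.0082 for Fcnb, 0.092 for Sftpc, 0.19 for Il1b and -0.090 for Cxcl1. In limma voom it was -0.032 for Scgb1a1, -0.24 for Ccl2 and 0.57 for Zbtb16, with the block -0.087 for Ccl2, and with detected genes as a covariate 0.16 for Sftpc and -0.53 for Ccl2. Leaving out single libraries gave -0.15 to 1.96 for Lcn2, -0.069 to 0.22 for Nqo1, -0.17 to 0.38 for Scgb1a1, -0.22 to 0.051 for Sftpc, -0.47 to 0.50 for Ccl2, -0.44 to 0.12 for Cebpd and -2.94 to 1.32 for Zbtb16. The cause was not tested in any of these. Of the 38 list medians, 5 kept their sign under every setting: red cell, cell cycle, MHC class II, glucocorticoid-induced and mesothelium. The 3 libraries a group and totals down to 5203358 counts limit what low genes can show: Elavl2 and Ephx2 rest on few reads at 6 days.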

Other observations

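Gene lists not described above had medians between -0.23 and 0.52 on the log2 scale at 5 mg/mL, and none of their genes passed the adjusted threshold. Among lung cell types the medians were 0.18 for ciliated genes (9 of 15 higher), -0.22 for club and goblet genes (5 of 12 higher), -0.23 for adipocyte genes (2 of 7 higher) and 0.52 for mesothelium genes (3 of 4 higher). Among the other lists they were 0.06 for complement genes (13 of 21 higher), 0.05 for MHC class I genes (10 of 17 higher), -0.13 for circadian clock genes (6 of 15 higher), -0.11 for immediate-early genes (12 of 27 higher), -0.09 for metal response genes (4 of 13 higher), 0.02 for protease and antiprotease genes (11 of 22 higher) and -0.21 for linker and core histone genes (5 of 16 higher). Without replicates 1 and 2 at 6 days the medians were 0.07 for ciliated, 0.40 for club and goblet, 0.50 for adipocyte and 0.35 for mesothelium genes. The same fit gave 0.39 for complement, 0.27 for MHC class I, -0.45 for immediate-early and 0.13 for metal response genes. It gave 0.07 for protease and antiprotease genes and 0.23 for linker and core histone genes.

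Tcf20, a transcriptional coregulator, was the gene called when replicate 3 at 6 days was left out, and it is named for that reason, after its values were seen. It had 7.78, 7.08 and 6.53 CPM at 12 days and 0.098, 0 and 3.56 CPM at 6 days. With all libraries its log2 fold change was 2.67 (SE 0.88) and its adjusted p in edgeR's quasi-likelihood test with Benjamini-Hochberg adjustment was 0.688. Control lungs had 17.8, 7.22 and 4.72 CPM at 12 days and 4.85, 4.61 and 8.16 CPM at 6 days.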
